A study of Mus musculus with 12 samples.

Results

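The genes described here are 10 regulators of the heart's energy metabolism: the PGC-1 coactivators Ppargc1a and Ppargc1b, the PPAR receptors Ppara, Ppard and Pparg, the estrogen-related receptors (ERR) Esrra, Esrrb and Esrrg, and the mitochondrial regulators Nrf1 and Tfam. They were chosen by gene symbol from the deposited table, which lists 55487 genes. All 10 were found, each on 1 row. The study sequenced poly(A)-selected heart RNA from wild-type mice in 4 groups of 3 libraries. I/R+B12 mice drank water with vitamin B12 at 50 mg/L for 7 days and then had a coronary artery tied for 45 min and reopened for 24 h (ischemia/reperfusion, I/R). I/R mice had the same injury on normal water. Sham+B12 mice drank the vitamin and had the operation without the tie, and Sham mice had that operation on normal water. Daily water intake is given as 4 mL. Strain, age, the part of the heart taken and whether each library is 1 animal are not given in the sources used here, so the p-values measure the spread between these libraries.

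PGC-1 proteins do not bind DNA. They dock on transcription factors and raise the output of genes for fatty acid oxidation, the TCA cycle and respiration, and the adult heart, which burns mostly fatty acids, depends on them. The PPARs are fatty acid sensors that bind DNA together with a retinoid X receptor (RXR). The ERRs are orphan receptors that need no hormone and bind the letters AAGGTCA, an extended form of AGGTCA, the letters that most nuclear receptors read. Nrf1 encodes nuclear respiratory factor 1, a DNA-binding activator of nuclear genes for respiration, and Tfam encodes the protein that packages mitochondrial DNA and starts its transcription.

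The promoter sequences of 4 genes are shown, each from 250 bases before to 50 bases after a RefSeq start in GRCm38.p6, 5′ to 3′ on the gene's strand, with motif letters in capitals. Nrf1 is shown because it was the one member that passed the test below, and Esrra because it was the most abundant member. Perm1 and Rxrg are shown because they were lower after I/R with B12 and their windows hold the ERR letters. The windows lie at chr6:30047738-30048037 (Nrf1, plus strand, at the earlier of its RefSeq starts), chr19:6921759-6922058 (Esrra, minus strand), chr4:156215677-156215976 (Perm1, plus strand) and chr1:167618015-167618314 (Rxrg, plus strand, at the later of its RefSeq starts).
Nrf1: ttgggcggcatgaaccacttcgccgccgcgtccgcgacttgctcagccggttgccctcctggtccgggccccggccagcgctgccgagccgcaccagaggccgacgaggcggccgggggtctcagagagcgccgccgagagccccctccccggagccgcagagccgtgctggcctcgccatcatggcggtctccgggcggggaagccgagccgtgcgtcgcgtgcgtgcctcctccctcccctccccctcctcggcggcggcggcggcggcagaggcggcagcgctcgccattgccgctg
Esrra: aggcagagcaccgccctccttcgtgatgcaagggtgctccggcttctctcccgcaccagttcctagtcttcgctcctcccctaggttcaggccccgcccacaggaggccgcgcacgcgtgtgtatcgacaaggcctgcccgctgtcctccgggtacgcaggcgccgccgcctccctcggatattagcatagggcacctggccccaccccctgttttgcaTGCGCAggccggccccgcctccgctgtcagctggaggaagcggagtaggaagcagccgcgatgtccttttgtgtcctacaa
Perm1: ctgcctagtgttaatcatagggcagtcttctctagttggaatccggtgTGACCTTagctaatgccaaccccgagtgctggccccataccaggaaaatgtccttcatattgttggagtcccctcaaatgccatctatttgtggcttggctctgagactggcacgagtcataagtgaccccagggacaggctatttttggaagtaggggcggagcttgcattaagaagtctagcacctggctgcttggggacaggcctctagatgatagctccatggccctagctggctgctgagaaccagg
Rxrg: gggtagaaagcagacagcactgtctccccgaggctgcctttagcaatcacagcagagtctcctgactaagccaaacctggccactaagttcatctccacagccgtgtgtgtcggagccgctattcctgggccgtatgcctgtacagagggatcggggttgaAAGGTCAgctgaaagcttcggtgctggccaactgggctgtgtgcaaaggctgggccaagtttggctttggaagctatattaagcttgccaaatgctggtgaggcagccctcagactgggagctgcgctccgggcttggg
The Nrf1 window holds none of the 3 motifs searched on both strands and has a GC content of 77.0%, against a median of 52.7% over all promoters. The window of its later start also holds none of them and has a GC content of 46.3%. The Esrra window holds TGCGCA, the core letters of the NRF-1 site, from base 220. The Perm1 window holds TGACCTT, the reverse complement of the ERR letters, from base 49, and the Rxrg window holds AAGGTCA from base 162. The window of the earlier Rxrg start holds none of the 3 motifs. AAGGTCA is in 4.72% of all 32817 promoters, AGGTCA, which is part of it, in 16.3% and TGCGCA in 7.75%. Over the members, 9 matched the table with 16 promoters. None of these 16 holds AAGGTCA, 2 hold AGGTCA (both of Pparg) and 1 holds TGCGCA (Esrra). A match says that the letters are there and nothing of binding. Only these exact letters were searched, so other forms of a site were not counted.

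Each library held an estimated 24 to 28.5 M fragments. Gene coordinates below are those of GENCODE M21 on mm10. Levels are in FPKM, a fragment count divided by gene length and library size. Differences are log2 differences of FPKM + 1 from limma over 13001 tested genes, with Benjamini-Hochberg adjusted p. A gene was called at an adjusted p under 0.05. The summed FPKM of 10 ventricular cardiomyocyte markers was 41171 to 59072 in I/R+B12, 38240 to 53591 in I/R, 56166 to 61448 in Sham+B12 and 54541 to 60158 in Sham. Of these markers, 9 of 10 had negative differences in I/R+B12 against Sham+B12 and 10 of 10 in I/R against Sham, with none called. In such bulk samples fewer cells of a type and less RNA per cell cannot be told apart. Neutrophil markers, 10 genes, summed to 280 to 3224 FPKM in I/R+B12, 18.2 to 1665 in I/R, 7.37 to 43.4 in Sham+B12 and 11.8 to 280 in Sham, and 4 of 9 tested were called higher in I/R+B12 against Sham+B12. The part of these shifts in the results below was not tested. The libraries labelled I/R 3 and Sham 3 went against their labels in neutrophil markers, but not in all genes. For Nrf1, I/R 3 (6.88 FPKM) was in the range of the other I/R libraries. Sham 3 (5.38) was in that of the other sham-operated ones. Lcn2, one of these neutrophil markers, is also a gene of injured and inflamed hearts. It had 3.04 FPKM in the library labelled I/R 3 and 210 FPKM in that labelled Sham 3. The other I/R libraries had 172 to 1176 and the other sham-operated ones 3.2 to 7.55. The labels were kept, and calls that are lost without these libraries are named as such.

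All 10 members were expressed in every library, from 1.35 FPKM upward, and all passed the filter on low values. Esrra was the most abundant, with a mean of 67.1 FPKM over 12 libraries and a range that did not overlap that of the next gene. Below it came Tfam (17.2), Ppard (12.7), Pparg (9.84), Esrrb (9.66), Ppargc1a (9.65), Ppara (8.08), Nrf1 (6.40), Esrrg (4.70) and Ppargc1b (3.92), and each of these overlapped its neighbours in that order. Within single libraries, Ppargc1a was above Ppara in 12 of 12 and Esrrg above Ppargc1b in 11. Pparg was above Esrrb in 5 and Esrrb above Ppargc1a in 6. The fold between the highest and the lowest library ran between 1.74 (Ppard) and 3.96 (Ppargc1b). The library I/R+B12 2 was the lowest of 12 for 6 members (Ppargc1b, Ppara, Esrra, Esrrb, Esrrg and Tfam) and the highest for 2 (Pparg and Nrf1).

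**Figure D1:**
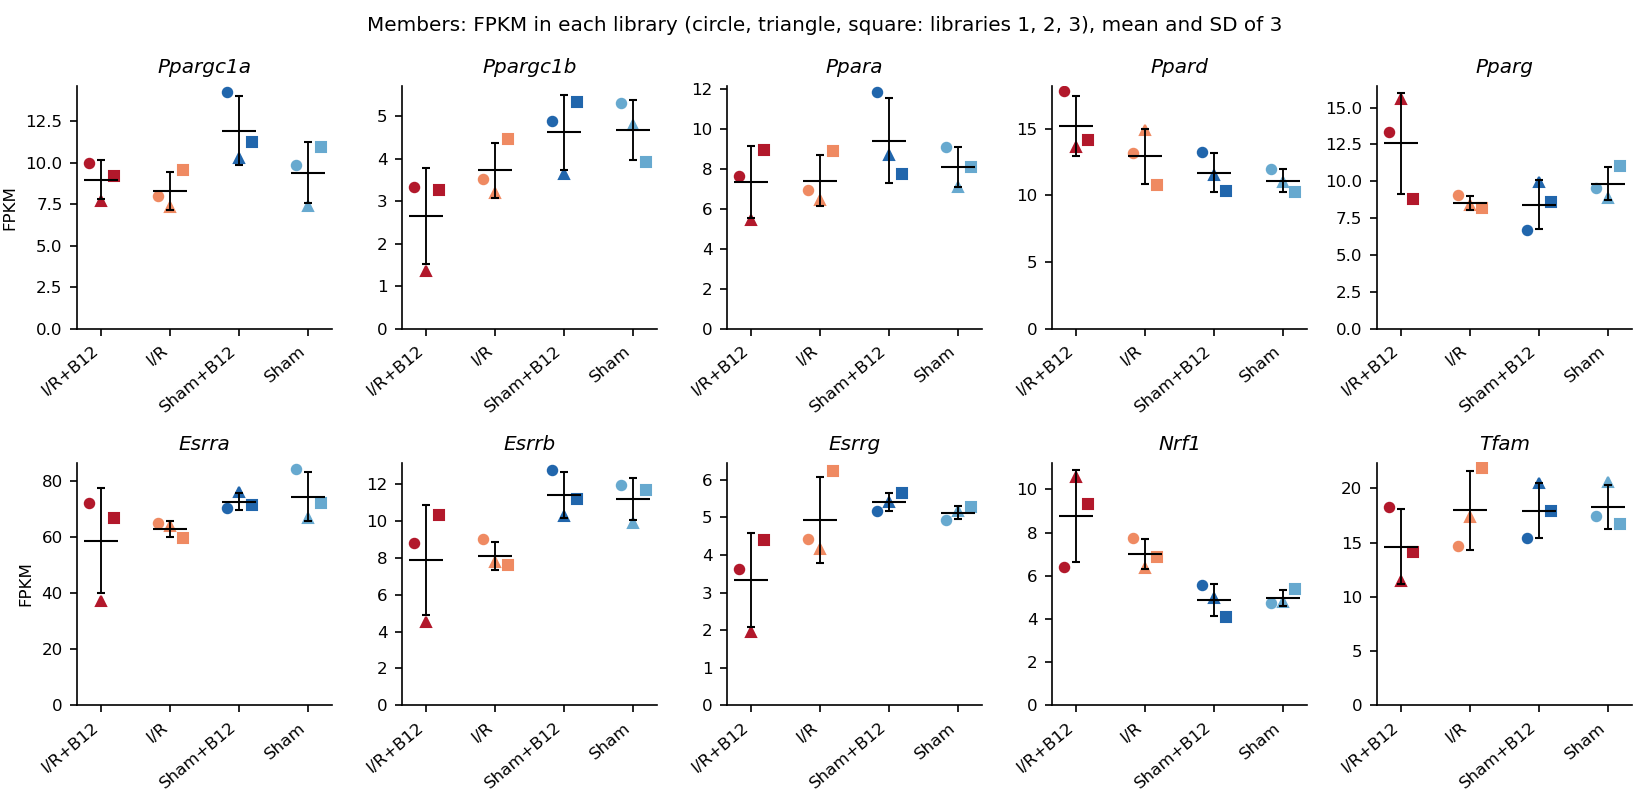
FPKM of the 10 members in each library (circle, triangle and square: libraries 1, 2 and 3 of a group), with the mean and SD of 3 libraries as bars, and the groups I/R+B12, I/R, Sham+B12 and Sham from left to right. The 6 I/R libraries of Nrf1 (6.37 to 10.59 FPKM) lie above all sham-operated ones (4.1 to 5.56), and the triangle of I/R+B12 is the lowest point for Ppargc1b, Ppara, Esrra, Esrrb, Esrrg and Tfam.

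What I/R did to these regulators was asked with and without the vitamin. Nrf1 rose after I/R in mice given B12 and in the average of both I/R comparisons, and it was the only member called in any comparison. Both PGC-1 genes, all 3 ERR genes, Ppara and Tfam had negative differences in both I/R comparisons, and Ppard had positive ones, but none of these passed. On normal water Esrrg was at 0.03 without I/R 2, and Tfam at 0.09 without I/R 1. In I/R+B12 against Sham+B12, 1 of 10 members was called, where 10.4% of all tested genes were. In the average of both I/R comparisons it was also 1 of 10, where 10.1% of all genes were. In I/R against Sham no member and no gene was called (0% of genes), although 1516 genes had an unadjusted p under 0.05, 1 of them a member. The members' median difference was -0.34 in I/R+B12 against Sham+B12 (all genes: -0.02) and -0.14 in I/R against Sham (all genes: 0.13).

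Nrf1 (chromosome 6, 30047988 to 30153458, plus strand) had 6.42, 10.59 and 9.3 FPKM in I/R+B12 libraries, 7.75, 6.37 and 6.88 in I/R, 5.56, 4.95 and 4.1 in Sham+B12, and 4.72, 4.8 and 5.38 in Sham. Every I/R library was above every sham-operated library, with or without the vitamin. The means were 8.77 ± 2.13 in I/R+B12 and 4.87 ± 0.733 in Sham+B12 (SD, n = 3 libraries each), a difference of 0.72 (SE 0.17, adjusted p = 0.0337, limma). On normal water the means were 7.00 ± 0.698 in I/R and 4.97 ± 0.360 in Sham, a difference of 0.42 (SE 0.17) that did not pass (adjusted p = 0.417, limma). The average I/R difference was 0.57 (SE 0.12, adjusted p = 0.0272, limma). The I/R 3 library, whose neutrophil marker sum of 18.2 FPKM lay in the sham-operated range, had 6.88 FPKM of Nrf1. Sham 3, with a neutrophil sum of 280, of which Lcn2 made up 210, had 5.38.

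The Nrf1 call in I/R+B12 against Sham+B12 was lost without I/R+B12 2 (difference 0.58, adjusted p = 0.106), I/R+B12 3 (0.67, 0.0544), I/R 2 (0.72, 0.0517), Sham+B12 1 (0.80, 0.0986), Sham+B12 2 (0.73, 0.0793) or Sham+B12 3 (0.62, 0.122), in limma fits with Benjamini-Hochberg adjustment. Over all 12 fits that left out a library, the adjusted p ran between 0.00227 and 0.122 and the difference between 0.58 and 0.90. Without both I/R 3 and Sham 3 the difference was 0.72 (adjusted p = 0.0394) and its average over both I/R comparisons 0.60 (0.0269). The call against Sham+B12 was also lost with no filter on low values (adjusted p = 0.0671) and with the compared groups alone (0.104). The average I/R call was lost with no filter (adjusted p = 0.0577), under a median-ratio scaling (0.0598), and without I/R 1, I/R 2, Sham+B12 1, Sham+B12 3, Sham 1 or Sham 2 (adjusted p between 0.0539 and 0.0790).

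**Figure D2:**
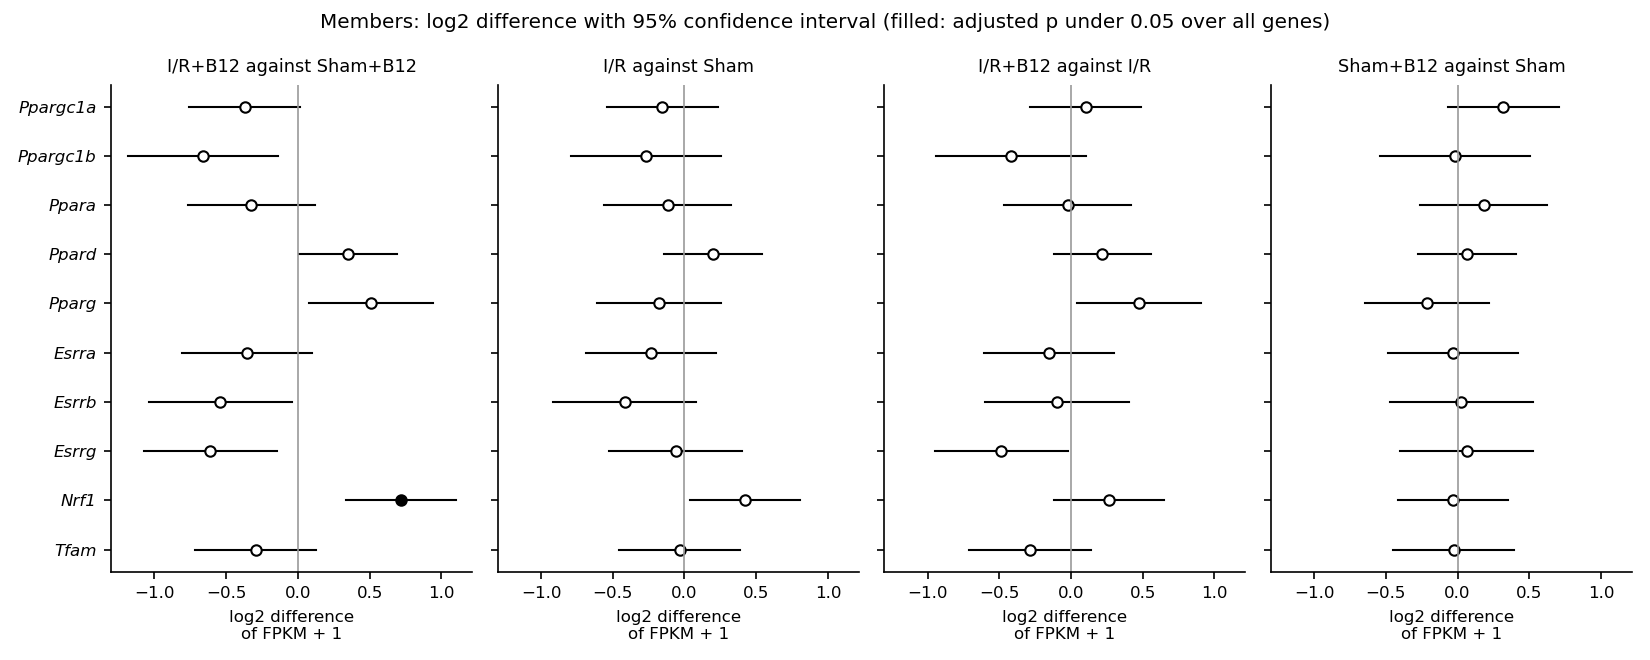
Log2 differences of FPKM + 1 with 95% confidence intervals for the 10 members in 4 comparisons, filled where the adjusted p over all genes was under 0.05. Nrf1 in I/R+B12 against Sham+B12 (0.72) is the one filled point, and in Sham+B12 against Sham every interval crosses 0.

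Ppargc1a (chromosome 5, 51454250 to 51567726, minus strand), the PGC-1 coactivator that cold, fasting and exercise induce, had 10, 7.7 and 9.21 FPKM in I/R+B12 hearts, 7.98, 7.35 and 9.54 in I/R, 14.26, 10.29 and 11.25 in Sham+B12, and 9.88, 7.39 and 10.94 in Sham. The I/R+B12 libraries lay under the Sham+B12 libraries without overlap, while those of I/R and Sham overlapped. The difference was -0.37 (SE 0.18, adjusted p = 0.172) with B12 and -0.15 (SE 0.18, adjusted p = 0.733) without. Its highest group mean was that of Sham+B12, 11.9 ± 2.07, against 9.40 ± 1.82 in Sham (difference 0.32, unadjusted p = 0.0989 and adjusted p = 0.999).

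Ppargc1b, its close relative, had 3.34, 1.35 and 3.26 FPKM in I/R+B12 hearts, 3.51, 3.2 and 4.45 in I/R, 4.88, 3.64 and 5.34 in Sham+B12, and 5.31, 4.78 and 3.92 in Sham. Again the I/R+B12 libraries lay under those of Sham+B12, and those of I/R and Sham overlapped. The difference was -0.66 (SE 0.24, adjusted p = 0.0860) with B12 and -0.27 (SE 0.24, adjusted p = 0.653) without. With B12, leaving out I/R+B12 2 gave -0.37 (adjusted p = 0.257) and leaving out I/R+B12 1 gave -0.82. On normal water, leaving out I/R 3 and Sham 3 gave -0.47 (adjusted p = 0.446). Within the pair, Ppargc1a made up 78.0% ± 6.19 of the summed FPKM in I/R+B12, 69.1% ± 0.797 in I/R, 72.1% ± 3.69 in Sham+B12 and 66.5% ± 6.56 in Sham (SD, n = 3 libraries each).

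Ppara (chromosome 15, 85734983 to 85802819, plus strand), the PPAR that drives fatty acid oxidation genes in heart muscle, had 7.67, 5.43 and 8.96 FPKM in I/R+B12 hearts, 6.95, 6.43 and 8.88 in I/R, 11.84, 8.69 and 7.75 in Sham+B12, and 9.1, 7.12 and 8.09 in Sham. All 4 groups overlapped. Its difference was -0.32 (SE 0.20, adjusted p = 0.284; -0.15 without I/R+B12 2) in I/R+B12 against Sham+B12 and -0.12 (SE 0.20, adjusted p = 0.830) in I/R against Sham.

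Ppard (chromosome 17, 28232700 to 28301474, plus strand), which shares many of these targets and is expressed in most tissues, had 17.81, 13.62 and 14.16 FPKM in I/R+B12 hearts, 13.14, 14.89 and 10.76 in I/R, 13.22, 11.49 and 10.35 in Sham+B12, and 11.96, 11.03 and 10.25 in Sham. It was the most abundant PPAR in 10 of 12 libraries by FPKM, which is scaled by length. Its I/R+B12 libraries lay above those of Sham+B12 without overlap (difference 0.35, SE 0.16, adjusted p = 0.146), and the groups on normal water overlapped (0.20, SE 0.16, adjusted p = 0.604). The ratio of Ppara to Ppard ran between 0.399 and 0.633 in I/R+B12 and between 0.749 and 0.896 in Sham+B12, which do not overlap. On normal water it was 0.432 to 0.825 in I/R and 0.646 to 0.789 in Sham. The highest I/R ratio, 0.825, belonged to I/R 3.

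Pparg (chromosome 6, 115360951 to 115490399, plus strand), best known as the driver of fat cell formation, had 13.32, 15.56 and 8.83 FPKM in I/R+B12 hearts, 9.08, 8.39 and 8.17 in I/R, 6.71, 9.98 and 8.57 in Sham+B12, and 9.56, 8.88 and 11.06 in Sham. I/R+B12 1 and 2 were above all other libraries, while I/R+B12 3 was inside the range of Sham+B12. Its differences pointed opposite ways: 0.51 (SE 0.20, adjusted p = 0.104) in I/R+B12 against Sham+B12 and -0.18 (SE 0.20, adjusted p = 0.721) in I/R against Sham. Of 9 fat cell markers, Lep, Plin1, Adipoq, Retn and Adrb3 were at 0.96 FPKM or less in every library, Cidec at 1.09 or less and Cfd at 5.51 or less. Fabp4, which endothelial cells also express, ran between 617 and 1595 FPKM and was highest in the same library as Pparg, I/R+B12 2. Thrsp, a lipid synthesis gene, ran between 13.5 and 61.1 FPKM and fell in I/R+B12 against Sham+B12 (-1.38, adjusted p = 0.0219). The summed list was 768 to 1609 FPKM in I/R+B12, 911 to 1085 in I/R, 663 to 1178 in Sham+B12 and 865 to 909 in Sham, nearly all of it Fabp4, and its part in the Pparg values was not tested.

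The ERR genes were summed by FPKM to 69.9 ± 22.7 in I/R+B12, 75.9 ± 2.47 in I/R, 89.4 ± 1.98 in Sham+B12 and 90.7 ± 9.67 in Sham (SD, n = 3 libraries each). Esrra made up 81.1% to 84.1% of this sum by group mean. Esrra (chromosome 19, 6910977 to 6921813, minus strand), a main ERR of oxidative tissues, had 72.2, 37.22 and 66.57 FPKM in I/R+B12 hearts, 65.07, 63.69 and 59.74 in I/R, 70.13, 75.93 and 71.51 in Sham+B12, and 84.15, 66.82 and 72.15 in Sham. The I/R libraries lay under the Sham libraries without overlap, by -0.23 (SE 0.21, adjusted p = 0.647). With B12 the groups overlapped, and the difference of -0.36 (SE 0.21, adjusted p = 0.253) was -0.06 without I/R+B12 2. Exons of Esrra overlap those of Trmt112 on the opposite strand (mean 27.8 FPKM). Whether the counting used strand is not given in the sources used here, so some fragments could belong to either gene.

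Esrrb (chromosome 12, 86361117 to 86521628, plus strand), best known from early embryos, had 8.82, 4.53 and 10.32 FPKM in I/R+B12 hearts, 9, 7.77 and 7.59 in I/R, 12.77, 10.29 and 11.21 in Sham+B12, and 11.96, 9.9 and 11.71 in Sham. Its I/R libraries lay under its Sham libraries without overlap (-0.42, SE 0.23, adjusted p = 0.470). With B12 the groups overlapped narrowly (-0.54, SE 0.23, adjusted p = 0.128), and the difference was -0.23 without I/R+B12 2. Its average I/R difference of -0.48 (SE 0.16) had an adjusted p of 0.0736, the smallest of the members that were not called. Under a median-ratio scaling it was -0.54 and passed (adjusted p = 0.0465).

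Esrrg (chromosome 1, 187608791 to 188214885, plus strand), the ERR linked to oxidative muscle and to the heart's switch to oxidative metabolism after birth, had 3.64, 1.95 and 4.39 FPKM in I/R+B12 hearts, 4.42, 4.15 and 6.25 in I/R, 5.16, 5.41 and 5.66 in Sham+B12, and 4.93, 5.17 and 5.28 in Sham. The I/R+B12 libraries lay under those of Sham+B12 (-0.61, SE 0.21, adjusted p = 0.0785), by -0.36 without I/R+B12 2. On normal water the groups overlapped, with 6.25 FPKM in I/R 3 the highest of all 12 (-0.06, SE 0.21, adjusted p = 0.925). Without I/R 3 and Sham 3 the second difference was -0.20 (adjusted p = 0.735).

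Tfam (chromosome 10, 71225464 to 71238280, minus strand) had 18.32, 11.43 and 14.1 FPKM in I/R+B12 hearts, 14.69, 17.34 and 21.85 in I/R, 15.39, 20.47 and 17.95 in Sham+B12, and 17.45, 20.55 and 16.73 in Sham. The groups overlapped in each comparison. Its difference was -0.29 (SE 0.19, adjusted p = 0.308) with B12, and -0.14 without I/R+B12 2. On normal water it was -0.03 (SE 0.19, adjusted p = 0.959), and -0.23 without I/R 3 and Sham 3. Tfam, which NRF-1 is known to activate, did not share the call of Nrf1.

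Libraries that did not overlap were also counted over all genes. In I/R+B12 against Sham+B12, 2 members (Ppard and Nrf1) were higher without overlap, as were 19.1% of all genes, and 3 (Ppargc1a, Ppargc1b and Esrrg) were lower, as were 13.2%. In I/R against Sham, 1 member (Nrf1) was higher, as were 18.8% of all genes, and 2 (Esrra and Esrrb) were lower, as were 3.6%. The 2 comparisons share no library.

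Whether the vitamin changed these genes was asked after injury and in sham-operated hearts. After injury (I/R+B12 against I/R) no member was called and the groups overlapped for each of them; of all genes 0% were called, 4.41% were higher without overlap and 18.8% lower. Markers of other cells moved in the same comparison. Macrophage markers had 8 of 9 negative differences (median -1.26, all genes -0.21), and their summed FPKM was 276 to 599 in I/R+B12, against 719 to 1091 in I/R. Fibroblast markers had 9 of 9 (median -0.56), with sums of 926 to 1119 in I/R+B12, against 1397 to 1783 in I/R. Smooth muscle and pericyte markers had 6 of 7 (median -0.42), with sums of 223 to 290 in I/R+B12, against 314 to 365 in I/R. None of these markers was called, the sums of the groups did not overlap, and their part in the members' values was not tested. By limma 3711 genes had an unadjusted p under 0.05, 2 of them members: Pparg (0.48, SE 0.20, unadjusted p = 0.0339, adjusted p = 0.146) and Esrrg (-0.49, SE 0.21, unadjusted p = 0.0418, adjusted p = 0.162). Nrf1 differed by 0.27 (SE 0.17, adjusted p = 0.325, limma). Without I/R+B12 1 its difference was 0.45 (adjusted p = 0.0317, limma), and it was the 1 member called there, where 4409 genes were. Ppargc1a differed by 0.10 with a 95% interval of -0.29 to 0.49, Ppara by -0.02 (-0.47 to 0.42) and Esrra by -0.15 (-0.61 to 0.30); under a median-ratio scaling Ppara was at 0.21 and Esrra at 0.11. In Sham+B12 against Sham no member was called or separated, where 0% of genes were called, 1.54% were higher without overlap and 8.98% lower. By limma 220 genes and no member had an unadjusted p under 0.05. The 95% intervals of the 10 members there reached from -0.64 (Pparg) to 0.71 (Ppargc1a). The interaction, which asks whether the I/R difference depends on the vitamin, had no called gene (0%) and 1595 genes with an unadjusted p under 0.05. Pparg was the one member among them, with 0.69 (SE 0.28, adjusted p = 0.401).

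Coregulators and partners of these factors were read from a list of 48 genes, 46 of them tested. In I/R+B12 against Sham+B12, 5 rose and 3 fell, 8 of 46 where 10.4% of all genes were called (6.78% higher and 3.62% lower); the list's median was 0.04 and that of all genes -0.02. In I/R against Sham none of the 46 was called. No gene of the list was called without I/R+B12 2 or without any single Sham+B12 library, and 1 rose and 1 fell without I/R 2. Without I/R+B12 1, 9 rose and 8 fell, and without I/R 3 and Sham 3, 4 rose and 2 fell (Lpin1 had an adjusted p of 0.0528 there and Zc3h12a 0.0511). All 8 calls were lost with no filter on low values (adjusted p between 0.0535 and 0.110) and with the compared groups alone (0.0557 to 0.115).

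Pprc1, the third PGC-1 family gene, which is known to respond early when cells are pushed to grow, had 6.71, 10.5 and 5.88 FPKM in I/R+B12 hearts, 6.02, 5.72 and 4.23 in I/R, 2.87, 3.38 and 2.93 in Sham+B12, and 2.51, 2.64 and 3.87 in Sham. All 6 I/R libraries lay above all 6 sham-operated ones, as for Nrf1. It rose by 1.06 (SE 0.21, adjusted p = 0.0236) with B12 and by 0.86 (SE 0.15, adjusted p = 0.0180) in the average of both comparisons, and its difference on normal water was 0.66 (SE 0.21, adjusted p = 0.382). Without I/R+B12 2 its difference with B12 was 0.85 (adjusted p = 0.0656). Its exons overlap those of Ldb1 on the opposite strand (mean 25.4 FPKM), so some fragments could belong to either gene.

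Perm1, a muscle gene that PGC-1 and ERR are known to induce, had 42.35, 16.04 and 42.38 FPKM in I/R+B12 hearts, 50.56, 45.66 and 71.43 in I/R, 78.55, 64.06 and 75.31 in Sham+B12, and 68.51, 61.09 and 63.96 in Sham. It fell by 1.21 in I/R+B12 against Sham+B12 (log2 difference -1.21, SE 0.31, adjusted p = 0.0379), and I/R and Sham overlapped (-0.23, SE 0.31, adjusted p = 0.778), with the highest of these I/R values in I/R 3. Without I/R 3 and Sham 3 the difference on normal water was -0.42 (adjusted p = 0.612). Rxrg, the RXR of striated muscle that pairs with PPARs, had 23.89, 10.47 and 19.48 FPKM in I/R+B12 hearts, 26.93, 24.53 and 34.02 in I/R, 34.95, 37.18 and 35.73 in Sham+B12, and 35.69, 36.57 and 35.22 in Sham. It fell by 1.04 with B12 (log2 difference -1.04, SE 0.24, adjusted p = 0.0282) and by 0.68 in the average of both comparisons (-0.68, SE 0.17, adjusted p = 0.0332). Its I/R libraries also lay under its Sham libraries (-0.33, SE 0.24, adjusted p = 0.564). Without I/R+B12 2 the B12 differences were -0.76 for Perm1 (adjusted p = 0.0702) and -0.71 for Rxrg (0.0626). Perm1 and Rxrg are 2 of the 4 listed coregulators whose promoter windows hold the ERR letters shown above, the others being Rxra and Mef2c. These letters are in 4 of the list's 58 promoters outside chromosome 18 (6.90%), against 4.72% of all promoters, where no chromosome was left out. Lpin1, which also fell with B12, is not among the 4.

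Lpin1, a coactivator of PPARα that also makes lipid intermediates, fell with B12 (log2 difference -0.78, adjusted p = 0.0420). The other increases were in Gabpb1, a subunit of the respiratory gene activator NRF-2 (0.73, adjusted p = 0.0310), Nfe2l2, the oxidative stress regulator (0.77, 0.0321), Crtc2, a CREB coactivator (0.88, 0.0364), and Zc3h12a, an RNase that limits inflammatory transcripts (1.71, 0.0460). Zc3h12a had 24.34 FPKM in I/R+B12 2 and 4.08 and 5.3 in the others of that group, so 1 library carried much of its difference, which was 0.99 without it. In the average of both I/R comparisons, Nfe2l2 (0.55), Gabpb1 (0.45), Creb1 (0.47, a factor that activates Ppargc1a) and Zc3h12a (1.23) rose and Cited2 (-0.62), a coactivator partner of PPARs, fell, beside Pprc1 and Rxrg. With no filter on low values Pprc1 was the only one of the 7 still called (adjusted p between 0.0699 and 0.109 for the others), and under a median-ratio scaling Nfe2l2 (0.0764), Gabpb1 (0.0831) and Zc3h12a (0.0628) were not called. Cited2 was not called without I/R 3 and Sham 3 (-0.51, adjusted p = 0.0792). None of the list was called in that average without I/R 1, I/R 2, Sham+B12 1, Sham+B12 3 or Sham 1. Rxra, Nrip1, a corepressor of oxidative genes, and Klf15, which works with PPARα in the heart, were not called. Nrip1 had 3.24, 4.83 and 6.29 FPKM in I/R+B12, against 2.45 to 2.8 in Sham+B12 (difference 0.62, adjusted p = 0.0523). Klf15 ran from 13.11 to 41.3 FPKM within I/R+B12 alone (-0.51, adjusted p = 0.347), and Rxra differed by -0.37 (adjusted p = 0.189).

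**Figure D3:**
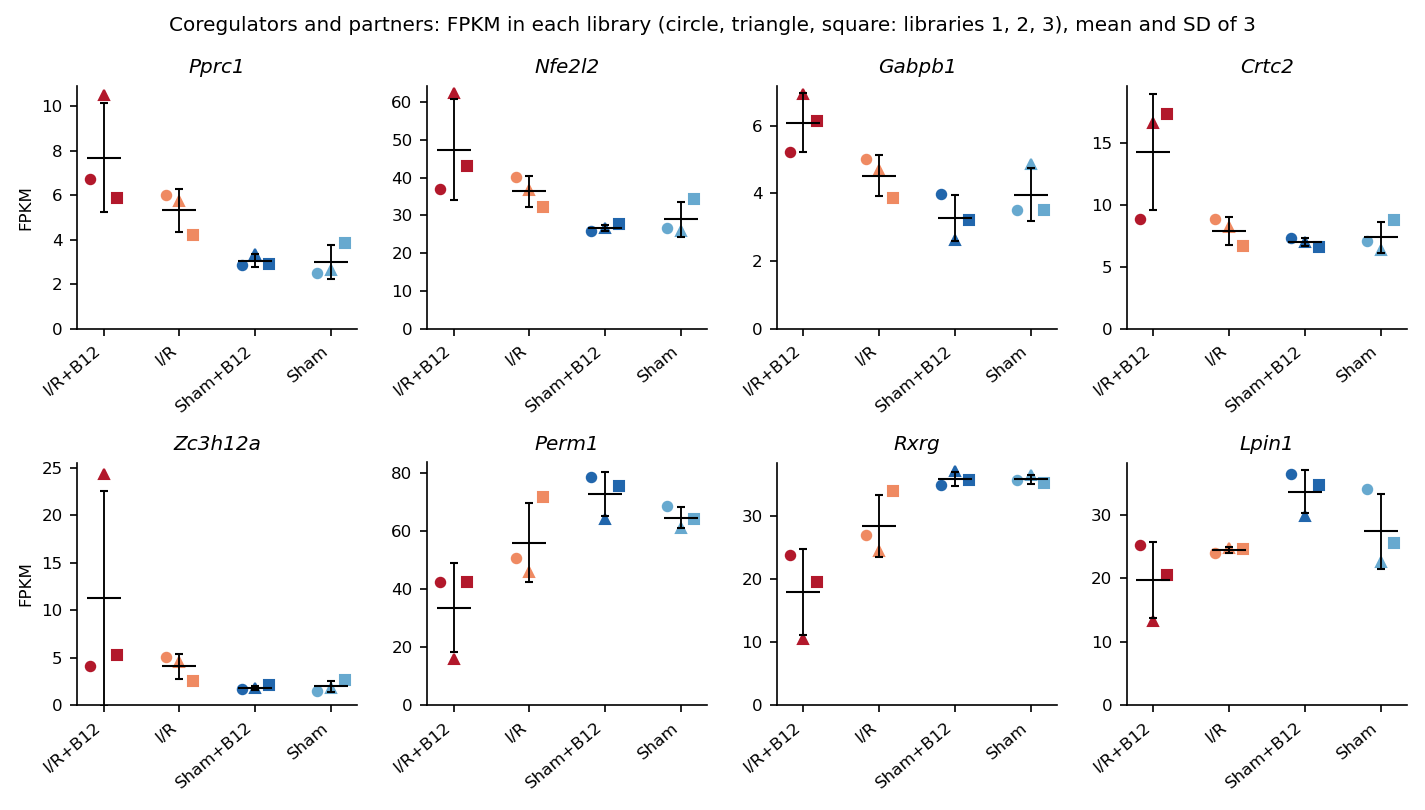
FPKM of the 8 coregulators and partners called in I/R+B12 against Sham+B12, in each library (circle, triangle and square: libraries 1, 2 and 3 of a group), with the mean and SD of 3 libraries; the SD bar of Zc3h12a in I/R+B12 is cut at 0. Pprc1 in I/R libraries (4.23 to 10.5) lies above all sham-operated ones (2.51 to 3.87), Rxrg in I/R libraries (10.47 to 34.02) lies below all of them (34.95 to 37.18), and the triangle of I/R+B12 is extreme for all but Crtc2.

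Target genes were read from 2 lists. Of 42 tested PPAR targets of fatty acid use, 32 had negative differences in I/R+B12 against Sham+B12 (median -0.28, all genes -0.02) and 38 in I/R against Sham (median -0.31, all genes 0.13), with none called in either. In the average of both comparisons 5 of 42 fell and none rose, where 1.71% of all genes fell and 8.36% rose (37 of 42 negative, median -0.27): Ehhadh, a peroxisomal β-oxidation enzyme (-0.97, SE 0.21, adjusted p = 0.0272), the mitochondrial β-oxidation enzymes Acaa2 (-0.39, 0.0407), Hadha (-0.46, 0.0464) and Hadh (-0.39, 0.0486), and Vldlr, a receptor for triglyceride-rich particles (-0.52, 0.0486). Ehhadh had 4.39, 2.24 and 6.45 FPKM in I/R+B12 hearts, 4.04, 3.68 and 4.13 in I/R, 7.95, 7.66 and 10.5 in Sham+B12, and 10.02, 5.82 and 12.15 in Sham. I/R libraries lay under sham-operated ones without overlap both with and without B12, though Sham 2 was inside the I/R+B12 range. The count of 5 was 0 without I/R 1, I/R 2, Sham+B12 1, Sham+B12 3 or Sham 1, 1 without I/R+B12 2, Sham 2 or Sham 3, and 2 without Sham+B12 2. It was 8 without I/R 3, and with I/R+B12 1 or I/R+B12 3 left out it was 12 or 14. Without I/R 3 and Sham 3 it was 3, with Acaa2 (adjusted p = 0.0541) and Hadha (0.0603) lost, and 2 targets were called higher. With no filter on low values none was called (0.0660 to 0.101), and under a median-ratio scaling 8 were, without Hadh (0.0654). The ventricular marker sums given above were lower by mean in the I/R groups too, though the I/R+B12 range overlapped those of both sham-operated groups. Their part was not tested.

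Cpt1b, the gate of fatty acid entry into mitochondria, averaged 161 ± 42.3 FPKM in I/R+B12, 172 ± 9.63 in I/R, 234 ± 26.2 in Sham+B12 and 224 ± 39.5 in Sham (average I/R difference -0.47, adjusted p = 0.0555). Acadm, a medium-chain acyl-CoA dehydrogenase, averaged 411 ± 53.9 FPKM in I/R+B12, 440 ± 61.8 in I/R, 525 ± 44.7 in Sham+B12 and 505 ± 26.2 in Sham (-0.28, adjusted p = 0.0755). Each ± is the SD of n = 3 libraries, and neither gene passed.

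The PPAR targets that varied most did not follow that pattern. Pdk4, a kinase that holds back glucose oxidation, had 141.62, 876.53 and 1027.94 FPKM in I/R+B12 hearts, 74.28, 134.33 and 75.39 in I/R, 369.44, 266.42 and 386.27 in Sham+B12, and 355.38, 114.19 and 559.56 in Sham. The I/R+B12 libraries were all above the I/R libraries, though I/R+B12 1 lay close to them (difference 2.46, SE 0.71, adjusted p = 0.0912). Without I/R+B12 1 it was 3.37 and passed (adjusted p = 0.00183). Ucp3, a mitochondrial carrier, had 16.19, 51.08 and 76.7 FPKM in I/R+B12 hearts, 11.07, 16.31 and 20.26 in I/R, 46.11, 53.5 and 76.33 in Sham+B12, and 63.32, 47.17 and 47.04 in Sham. The I/R libraries were all below the Sham libraries (-1.69, SE 0.45, adjusted p = 0.378), and I/R+B12 1 alone of its group was at the I/R level (I/R+B12 against I/R 1.32, SE 0.45, adjusted p = 0.104; 1.95 and 0.00127 without it). Angptl4, a secreted lipase inhibitor, had 27.87, 67.48 and 38.02 FPKM in I/R+B12, against 28.85, 26.2 and 2.89 in I/R (1.54, adjusted p = 0.227), and the difference was 0.58 (adjusted p = 0.354) without I/R 3 and Sham 3.

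Of 40 tested ERR targets of the TCA cycle and energy transfer, 34 had negative differences in I/R+B12 against Sham+B12 (median -0.20) and 36 in I/R against Sham (median -0.21), with none called. In I/R+B12 against I/R 32 were positive (median 0.08, all genes -0.21), again with none called. Ventricular cardiomyocyte markers moved in the same directions. In I/R+B12 against I/R 8 of 10 were positive (median 0.17). Their medians were -0.25 in I/R+B12 against Sham+B12 and -0.28 in I/R against Sham. Their part in the ERR target values was not tested. In the average of both I/R comparisons 1 of 40 was called, where 10.1% of all genes were: Timm8a1, a chaperone of the mitochondrial import space, rose (0.59, SE 0.13, adjusted p = 0.0284), with 7.47, 7.88 and 7.58 FPKM in I/R+B12 hearts, 8.52, 7.04 and 7.88 in I/R, 3.5, 6.05 and 4.83 in Sham+B12, and 3.66, 5.17 and 5.96 in Sham. Of the 40, 36 were negative in that average (median -0.20, all genes 0.05). By limma 22 had an unadjusted p under 0.05, as had 4071 of all 13001 genes. All I/R libraries of Timm8a1 were above all sham-operated ones. The call was lost with no filter on low values (adjusted p = 0.0631) and without I/R 1, I/R 2, Sham+B12 1, Sham+B12 3, Sham 1 or Sham 2; without I/R+B12 3, 19 ERR targets fell, and without I/R 3, 4 did.

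**Figure D4:**
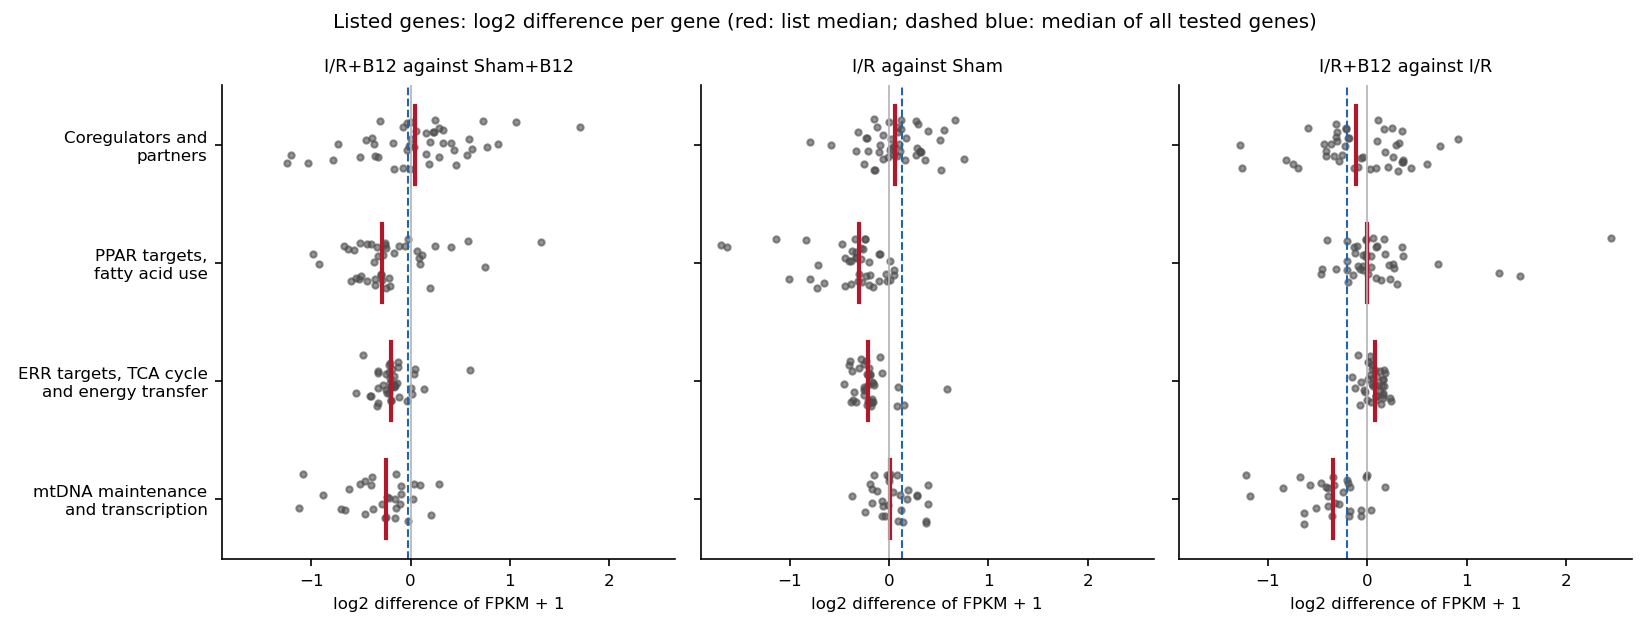
Log2 differences of FPKM + 1 for each tested gene of the 4 lists (points, spread vertically at random) in 3 comparisons, with the list median in red and the median of all 13001 genes as a dashed line. The medians of the PPAR and ERR targets are below that of all genes in both I/R comparisons (PPAR targets -0.28 with B12 and -0.31 without), and the mitochondrial DNA list is at -0.25 with B12 and 0.01 without.

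Genes that maintain and transcribe mitochondrial DNA, the processes in which Tfam takes part, numbered 30 tested of 32. With B12, 25 had negative differences after I/R (median -0.25), while on normal water 14 did (median 0.01); none was called. In I/R+B12 against I/R, 28 of 30 were negative (median -0.34, all genes -0.21) and 12 had an unadjusted p under 0.05, with none called, beside the macrophage, fibroblast and smooth muscle markers given above; their part was not tested. Under a median-ratio scaling 19 of 29 were negative there (median -0.14, all genes 0.02). In the usual scaling without I/R+B12 1, 14 of 29 fell against I/R and 10 of 29 against Sham+B12. The 4 with the smallest p in I/R+B12 against Sham+B12 were Tefm, a transcription elongation factor (-0.88, adjusted p = 0.0519), Twnk, the mitochondrial helicase (-0.62, 0.0526), Tfb1m, a ribosomal RNA methyltransferase (-1.12, 0.0527), and Dguok, a deoxyguanosine kinase (-1.09, 0.0572). Dguok had 21.22, 5.99 and 7.54 FPKM in I/R+B12 hearts, 22.27, 22.84 and 29.07 in I/R, 23.48, 22.02 and 21.57 in Sham+B12, and 25.22, 26.41 and 22.19 in Sham. Tfb1m had 4.31, 0.58 and 1.61 FPKM in I/R+B12 hearts, 5.64, 4.55 and 5.86 in I/R, 5, 5.26 and 5.02 in Sham+B12, and 6.18, 5.37 and 4.54 in Sham. In both genes I/R+B12 2 and 3 were far below every other library and I/R+B12 1 was close to the others, a split within 1 group. The smallest p in I/R+B12 against I/R were those of Dguok (-1.22, adjusted p = 0.0873; -1.73 and 0.000194 without I/R+B12 1), Tfb1m (-1.18, 0.0893; -1.64 and 0.000654 without it), Top1mt, a topoisomerase (-0.40, 0.101), and Mgme1, an exonuclease (-0.63, 0.102). Polrmt, the mitochondrial RNA polymerase, differed by -0.65 in I/R+B12 against Sham+B12 (adjusted p = 0.0937), and Tfb2m, its initiation factor, by -0.15 (0.453).

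The genes whose levels followed Ppargc1a most closely over the 12 libraries, by Pearson r of log2(FPKM + 1) among 11884 genes, were G6pc3 (0.911), Ube3b (0.879), Cox6b2 (0.854), Ogdhl (0.853) and Trip10 (0.834). For Ppara they were Entpd4 (0.877), G6pc3 (0.875), Vwa7 (0.871), Lsm14b (0.869) and St3gal3 (0.869), so G6pc3 was near both. For Esrra they included Nt5m (0.949), Neurl4 (0.947), Cd300lg (0.947) and Tmem250-ps (0.937). These are descriptions over 12 libraries that share their groups. I/R+B12 2 is the lowest point of Ppara and Esrra, and Sham+B12 1 is the highest of Ppargc1a and Ppara.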

How the data were processed

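Heart RNA was sequenced in 12 libraries. The authors deposited 1 table of FPKM per gene and library, and HISAT2, StringTie and the build mm10 are named in the submitters' processing notes without versions; the annotation and any filter are not given in the sources used here. The deposited group means were not used. FPKM is scaled to the library total, so a rise of a few abundant genes lowers the rest. Fragment totals were worked out from the spacing of low FPKM values in single-transcript genes of 400 to 1500 nt (24 to 28.5 M fragments, 83.1% to 88.2% of values within 0.15 of a whole fragment). It is an estimate and covers counting error only.

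log2(FPKM + 1) of all 12 libraries was fitted with limma 3.58.1 (R 4.3.3) with a variance trend over the 13001 genes that reached an FPKM of 1 in 3 or more libraries, and p-values were two-sided and Benjamini-Hochberg adjusted over these genes. The fit was tested on simulated data. Fold changes of low genes are understated on this scale. The members and gene lists were chosen with earlier results of these data known. Named genes were all members, every listed gene called in any contrast (otherwise the 4 with the smallest p), 15 listed genes always named, and the 5 genes most like Ppargc1a, Ppara and Esrra. Some genes that these rules name are not reported here. Promoters and motifs came from RefSeq (GRCm38.p6), overlapping exons from GENCODE M21. Alternatives were a pseudocount of 0.1, no filter, median-ratio scaling, the compared groups alone, library weights, a replicate block, and libraries left out; for coregulators, targets and lists they were added after seeing the data. Protein sequences were not used here. Figures were drawn with matplotlib 3.10.9.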

Additional observations from a re-analysis of the deposited data

Results flagged for a closer look

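Pparg was the one member whose I/R libraries all lay on opposite sides of the matching sham mean with and without the vitamin. All 3 I/R+B12 libraries (13.32, 15.56 and 8.83 FPKM) lay above the Sham+B12 mean of 8.42, and all 3 I/R libraries (9.08, 8.39 and 8.17 FPKM) lay below the Sham mean of 9.83. The libraries of the groups overlapped in both comparisons. On normal water the log2 difference was -0.07 without I/R 3 and Sham 3. The interaction, the I/R difference with B12 minus that without, was 0.69 (SE 0.28, unadjusted p = 0.0308) and did not pass over all genes (adjusted p = 0.401, limma).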

How the results depend on the processing

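Calls depended on the fit more than directions did. Genes called in I/R+B12 against Sham+B12 numbered 1352, but 262 with no filter, 351 with the compared groups alone and 3082 with library weights, whose estimation stopped before convergence. In the average of both I/R comparisons 1309 became 274 with no filter, 4736 with weights and 2320 without I/R 3 and Sham 3. From 0 called, I/R against Sham gave 2 with the groups alone, 4411 with weights and 55 without those libraries; I/R+B12 against I/R gave 2 with median-ratio scaling, 2 with the groups alone, 4325 with weights and 4 without them; Sham+B12 against Sham gave 3 with no filter; the interaction gave 1 with no filter, 1838 with weights and 2 without them. Members called in I/R+B12 against Sham+B12 numbered 0 with no filter, the groups alone or a replicate block and 2 with weights; in the I/R average 0 with no filter and 7 with weights; in I/R against Sham 4 with weights. The cause was not tested.

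Leaving out 1 library, genes called ran between 0 and 1 in I/R against Sham, 0 (without Sham+B12 1) and 3833 (without I/R+B12 1) in I/R+B12 against Sham+B12, 0 and 1 in Sham+B12 against Sham, 0 and 1840 in the interaction, 0 and 4409 in I/R+B12 against I/R, with 0 and 2701 in the I/R average. Members called ran between 0 and 3 in I/R+B12 against Sham+B12, 0 and 3 in the I/R average and 0 and 1 in I/R+B12 against I/R (Nrf1, without I/R+B12 1). Some members not called in the main fit were called when 1 library was left out. In I/R+B12 against Sham+B12 these were Ppargc1b (1 fit), Pparg (1) and Esrrg (2), and in the I/R average Ppargc1b (1) and Esrrb (2).

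Nrf1 in I/R+B12 against Sham+B12 had an adjusted p of 0.0671 with no filter, 0.104 with the groups alone and 0.0506 with the replicate block, and in the I/R average 0.0577 with no filter and 0.0598 with median-ratio scaling. Same-number libraries did not resemble each other on average (mean r 0.01 over 18 pairs, -0.01 over 36 others). Single same-number pairs ran between -0.41 and 0.39, and a mean near 0 cannot exclude that the numbers pair samples. With the replicate block 11 PPAR targets fell in the I/R average, where 5 did without it.

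Median-ratio scaling moved the median of all genes from 0.13 to 0.00 in I/R against Sham, from -0.14 to 0.02 in the interaction and from -0.21 to 0.02 in I/R+B12 against I/R. It turned the signs of Ppara (0.21), Esrra (0.11) and Esrrb (0.14) in I/R+B12 against I/R, of Ppargc1b (0.049), Esrra (0.049), Nrf1 (0.038) and Tfam (0.049) in Sham+B12 against Sham, and of Esrra (0.062) and Esrrb (0.036) in the interaction. Weights turned Ppara (0.25), Ppard (-0.0075) and Esrrb (0.12), then Ppard (-0.040), then Ppara (0.20), Esrra (0.020) and Esrrb (0.12) in the same 3. Without I/R 3 and Sham 3, Ppara (0.10) turned in the first and Nrf1 (0.020) in the second. Leaving out 1 library, signs turned in I/R against Sham for Esrrg (-0.21 to 0.033) and Tfam (-0.18 to 0.094); in I/R+B12 against I/R for Ppara (-0.16 to 0.15), Esrra (-0.33 to 0.14) and Esrrb (-0.30 to 0.21); in Sham+B12 against Sham for Ppargc1b (-0.12 to 0.11), Ppard (-0.018 to 0.14), Esrra (-0.10 to 0.061), Esrrb (-0.052 to 0.093), Nrf1 (-0.11 to 0.068) and Tfam (-0.12 to 0.073); and in the interaction for Esrra (-0.30 to 0.17) and Esrrb (-0.33 to 0.19). None of these was called, and no member's sign turned in I/R+B12 against Sham+B12 or in the I/R average under any alternative run.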
